A study of Mus musculus with 14 samples.

Results

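The UDP-glucuronosyltransferases (Ugt) and cytosolic sulfotransferases (Sult) are the enzyme families that make small molecules water-soluble by conjugation. Their genes were collected by symbol from the deposited expression table, which gave 40 members of 29923 symbols, 20 Ugt genes of the Ugt1a, Ugt2a, Ugt2b and Ugt3a subfamilies and 20 Sult genes of the Sult1 to Sult6 families. Pseudogene symbols ending in -ps were left out, and no measured value was used to choose a member. A gene was tested where it reached 1 TPM or more (a relative transcript level scaled to transcript length) in at least 3 tumours, and 29 of the 40 members and 13466 genes in all did so.

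The data were bulk poly-A RNA from 14 liver tumours of C57BL/6 mice, a single inbred strain. Tumours were induced by hydrodynamic tail-vein injection, which drives plasmids into hepatocytes, using MYC-carrying transposons and the SB100 transposase, so MYC was shared by every group. Luc Aoah tumours (n = 4) received MYC-luciferase (MYC-Luc) and a plasmid for Aoah, acyloxyacyl hydrolase, an enzyme that removes fatty acids from bacterial lipopolysaccharide. Luc vector tumours (n = 4) received MYC-Luc and the empty plasmid. LucOS Aoah tumours (n = 3) received MYC-luciferase carrying the OVA, SIN and SIY antigens (MYC-LucOS) together with the Aoah plasmid, and LucOS vector tumours (n = 3) received MYC-LucOS with the empty plasmid. A plasmid for truncated beta-catenin (CTNNB1) is listed without saying which tumours received it, an anti-PD1 protocol is given without saying that any of these tumours was treated, and age and sex are not stated in the labels. The study asked what Aoah overexpression changes in these tumours. Tumours carry numbers, and nothing says that they come from different mice, so p-values measure only how these samples vary. Values below follow the tumour numbers, 1 to 4 in Luc and 1 to 3 in LucOS.

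Ugt enzymes sit in the endoplasmic reticulum of hepatocytes and, in the main, transfer glucuronic acid from UDP-glucuronic acid to bilirubin, steroids, bile acids, phenols and drugs. Sult enzymes work in the cytosol and transfer a sulfonate group from the donor PAPS to phenols, hormones, bile acids and amines. Many of these genes belong to the differentiated programme of the hepatocyte and lie in clusters of near copies, the Ugt1a genes joining their own first exons to a common set of later exons.

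TPM of Aoah itself ran from 284 to 685 with the Aoah plasmid in Luc and from 576 to 931 in LucOS. It stood at 18.6 TPM in Luc vector 1 and 54.8 TPM in Luc vector 3, against 0.74 and 0.89 TPM in the other Luc vector tumours and 1.28 to 3.43 TPM in LucOS vector tumours. Between 11478 and 12836 genes reached 1 TPM in a tumour, and TPM keeps no depth, so the depth behind each value is unknown. Mitochondrial transcripts made up 3.41% to 8.45% of TPM in 13 tumours and 16.6% in LucOS Aoah 3. The summed TPM of 14 hepatocyte markers was 10528 to 29811 with Aoah and 8695 to 11818 with vector in Luc, and 11826 to 24726 with Aoah and 5630 to 12483 with vector in LucOS, so the labelled tissue carried its defining genes throughout. Of these 14 markers, 4 were higher in Luc Aoah than Luc vector tumours, beside 7.93% of all genes. In LucOS, 2 were higher in Aoah than vector tumours, beside 0.75% of all genes. The markers did not all move alike. In Luc their changes of log2(TPM + 1) ran from -0.77 (Cps1) to 1.96 (Apoc3), with Asgr2 (-0.66) and Asgr1 (-0.05) also negative. In LucOS only Asgr1 (-0.16) was negative. The sum leans on abundant genes, Alb giving 13334 of the 29811 TPM in Luc Aoah 4. In bulk tissue, fewer cells of a type and less RNA per cell cannot be told apart. Markers of other cells also moved with Aoah in Luc, where 7.93% of all genes were higher and 14.3% lower. Of 4 tested cholangiocyte markers 1, Sox9, was lower. Higher were 2 of 5 macrophage, 3 of 5 T cell, 3 of 5 tested stellate cell and fibroblast and 2 of 5 endothelial markers. With Aoah and with vector in Luc, their sums were 335 to 396 and 101 to 151 TPM for macrophages, 19.0 to 35.1 and 1.95 to 8.14 TPM for T cells, 98.6 to 165 and 28.7 to 57.0 TPM for stellate cells and fibroblasts, and 11.0 to 25.4 and 3.88 to 13.0 TPM for endothelial cells. Among macrophage markers Cd68 (-0.20) and Csf1r (-0.35) had negative log2 changes in Luc. In LucOS the T cell sum was 23.0 to 79.6 TPM in Aoah tumours, above the 6.26 to 17.6 TPM of vector tumours, and the stellate cell and fibroblast sum was 92.8 to 218 TPM in Aoah tumours, above the 57.2 to 63.5 TPM of vector tumours. The LucOS groups overlapped for macrophages (262 to 623 TPM with Aoah, 163 to 281 TPM with vector) and endothelial cells (7.74 to 20.5 and 5.95 to 12.1 TPM). The part of these other cells in the results was not tested. Kidney proximal tubule markers summed to at most 0.57 TPM and neuron markers to at most 3.18 TPM in any tumour.

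Conjugation genes were mostly higher in the tumours that carried Aoah, led by the Ugt2b and Ugt3a genes and by Sult2a8, Sult2a7 and Sult2a3, and Sult1e1 was lower. In Luc, 18 of 29 tested members passed an adjusted p of 0.05 (limma, adjusted over all genes), beside 22.2% of all genes. Of these, 17 rose and 1 fell, beside 7.93% of all genes higher and 14.3% lower. In LucOS, 9 of 29 passed, beside 0.965% of all genes, and all 9 rose, beside 0.75% of genes higher and 0.215% lower. The median change of the tested members was 1.13 on the log2 scale in Luc, where that of all genes was -0.24, and 1.33 in LucOS, where that of all genes was -0.02. Changes are of log2(TPM + 1), given with ± 1 SE of the fit, a scale on which the fold of low-level genes is understated. A count over tested members leans upward, because Sult2a7, Sult3a1, Sult5a1, Ugt2b37 and Ugt3a1 passed the level filter mainly through Aoah tumours. Among the 24 members that reached 1 TPM in at least 3 vector tumours, 12 rose and 1 fell in Luc, beside 6.53% and 15.4% of genes chosen the same way, and 7 rose in LucOS, beside 0.609%.

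**Figure D1:**
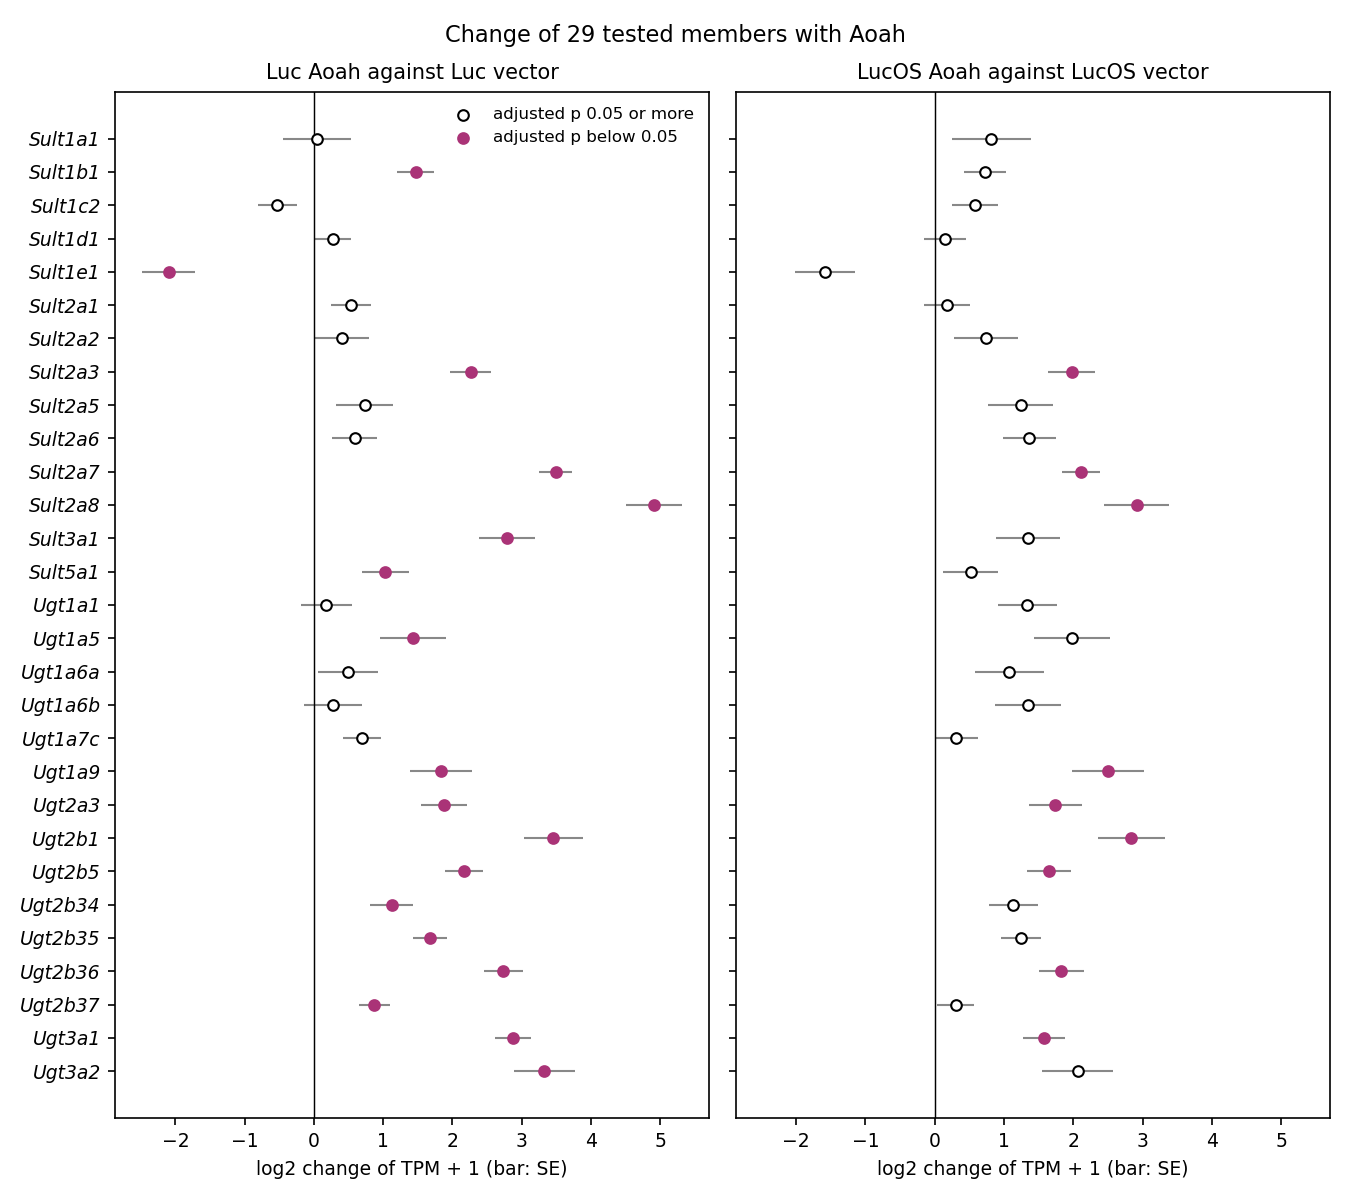
Change of the 29 tested members, in log2 of TPM + 1, in Luc Aoah against Luc vector (left) and LucOS Aoah against LucOS vector tumours (right). Points are estimates of the limma fit with bars of 1 SE, and filled points passed an adjusted p below 0.05; Sult1e1 is the member furthest to the left in both panels.

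Leaving out single tumours moved the LucOS count far more than the Luc count. In Luc, 13 to 17 members were called with any 1 tumour left out, and 11 without Luc vector 1 and 3, the vector tumours with raised Aoah. Calls over all genes moved too, from 855 to 5251 and to 355 in these settings, against 2988 as reported. In LucOS, 1 member was called without Aoah 1 (13 of all genes), 12 without Aoah 2 (226 genes) and 2 without Aoah 3 (14 genes). Without vector 1, 2 or 3 the counts were 3 (62 genes), 15 (353 genes) and 2 (23 genes). As reported, 130 of all genes were called in LucOS. The LucOS calls of Ugt2b36, Ugt2b5, Ugt2b1, Ugt2a3, Ugt3a1 and Ugt1a9 were each lost without Aoah 1, Aoah 3, vector 1 or vector 3. The call of Sult2a8 was lost without Aoah 1 or 3, and that of Sult2a3 without Aoah 1 or vector 3. Fitted on its own 6 tumours, LucOS gave 1 member call, Sult2a7, beside 6 of 12262 genes called. With TPM scaled to equal hepatocyte marker sums, a setting chosen after seeing the data, 12 members were higher and 3 lower in Luc. In LucOS 8 members were higher and 1 lower. Of all 13466 genes, 8666 were called in Luc, 327 of them higher, and 5670 in LucOS, 113 of them higher. The median of all genes was -0.98 in Luc and -0.89 in LucOS. The calls lost on that scale were those of Sult1b1, Sult5a1, Ugt1a5, Ugt2b34 and Ugt2b35 in Luc and those of Ugt2b36, Ugt2b5, Ugt2a3 and Sult2a3 in LucOS.

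Summed over its 20 members, the Ugt family stood at 1503, 1504, 1153 and 1907 TPM in Luc Aoah tumours, against 421, 504, 514 and 557 TPM in Luc vector tumours. The sum was 970, 756 and 1537 TPM in LucOS Aoah tumours, against 254, 654 and 272 TPM in LucOS vector tumours. No Aoah tumour overlapped the vector tumours of its model, and the ratio of means was 3.04 in Luc and 2.77 in LucOS. The Sult sum was 749, 636, 759 and 1194 TPM in Luc Aoah tumours, against 395, 679, 434 and 386 TPM in Luc vector tumours, with Luc vector 2 inside the Aoah range. In LucOS it was 640, 473 and 603 TPM with Aoah, against 371, 457 and 351 TPM with vector. The ratio of Sult means, 1.76 in Luc and 1.46 in LucOS, turned to 0.93 and 0.70 when TPM was scaled to equal hepatocyte marker sums, while that of Ugt was 1.60 in Luc and 1.40 in LucOS on that scale.

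**Figure D2:**
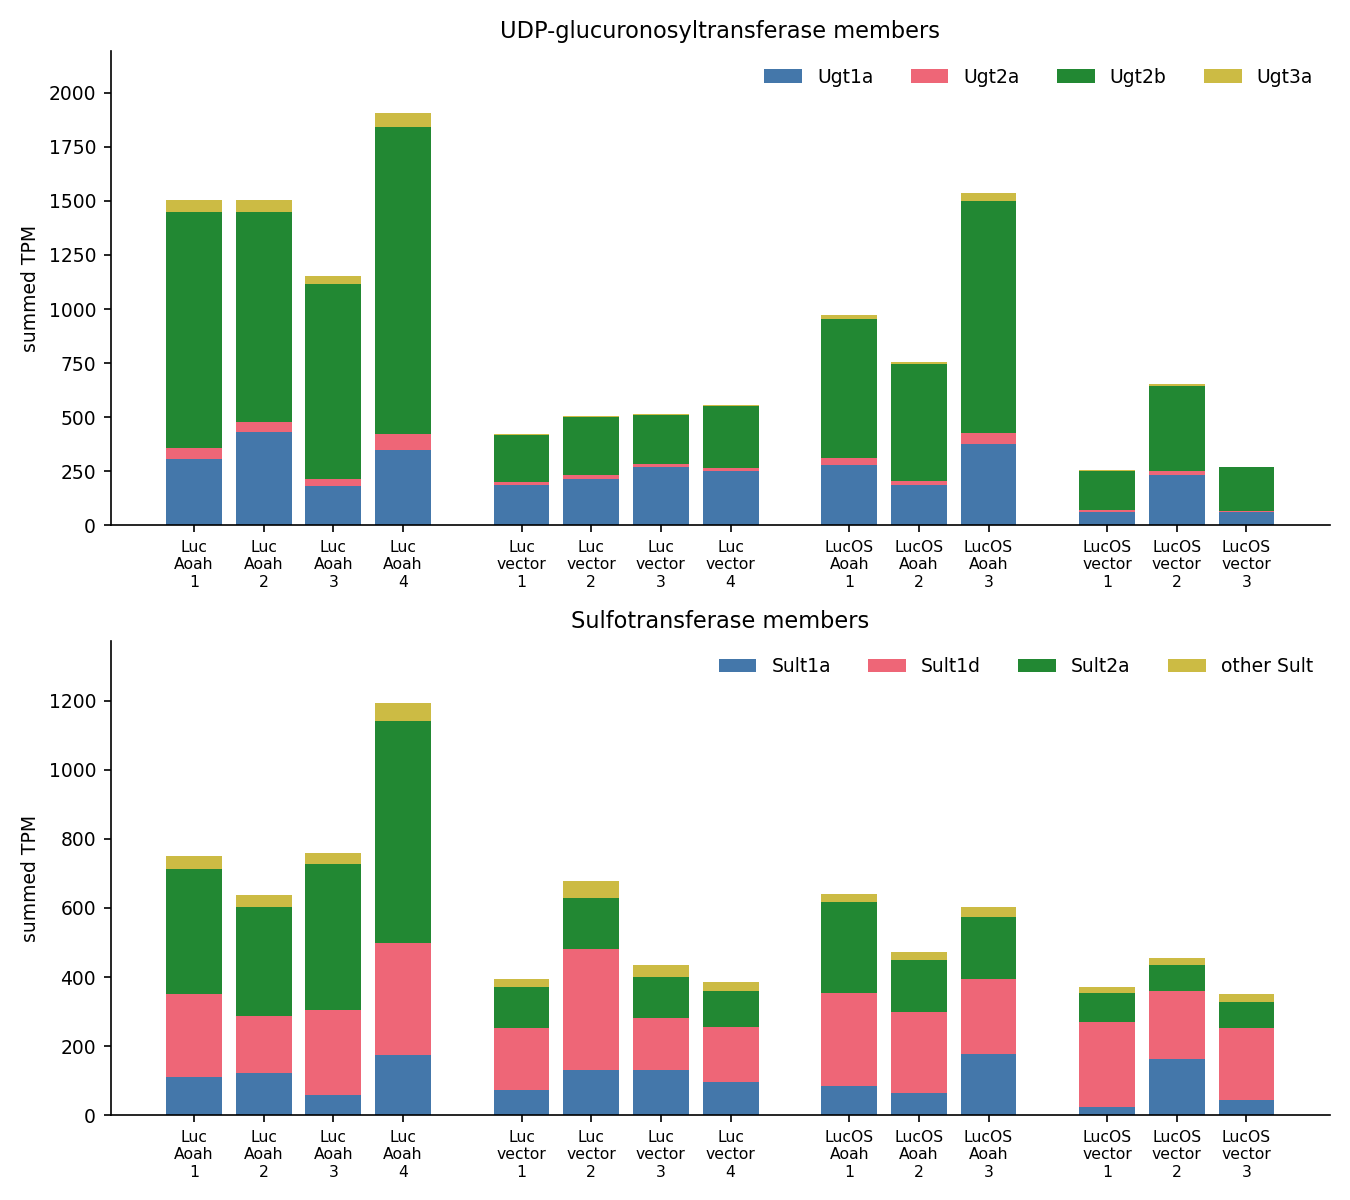
Summed TPM of the Ugt (top) and Sult members (bottom) in each of the 14 tumours, stacked by subfamily. The green Ugt2b block makes up most of the height gained in Luc Aoah tumours over Luc vector tumours, and among Sult genes the green Sult2a block does.

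The 7 Ugt2b genes, the steroid, bile acid and drug glucuronosyltransferases of rodent liver, changed most in amount. Their sum was 1088, 969, 902 and 1416 TPM in Luc Aoah tumours, against 219, 268, 229 and 287 TPM in Luc vector tumours, a ratio of means of 4.36. In LucOS it was 641, 541 and 1072 TPM with Aoah, against 181, 394 and 202 TPM with vector, a ratio of 2.90. Of 6 tested Ugt2b genes, all 6 rose in Luc and 3 rose in LucOS.

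Ugt2b36 stood at 408, 303, 377 and 540 TPM in Luc Aoah tumours, against 50.5, 72.2, 55.1 and 59.7 TPM in Luc vector tumours. The LucOS levels were 200, 184 and 337 TPM with Aoah, against 59.3, 110 and 41.3 TPM with vector. Groups did not overlap in either model, and the change was 2.74 ± 0.28 in Luc (limma adjusted p = 5.8e-05) and 1.83 ± 0.33 in LucOS (adjusted p = 0.022) on the log2 scale. Ugt2b5 stood at 370, 370, 300 and 503 TPM in Luc Aoah, against 76.1, 82.3, 81.3 and 97.4 TPM in Luc vector tumours. With LucOS it stood at 227, 199 and 400 TPM in Aoah, against 67.0, 141 and 60.8 TPM in vector tumours. It rose by 2.16 ± 0.27 in Luc (limma adjusted p = 0.00028) and 1.65 ± 0.32 in LucOS (adjusted p = 0.029), again without overlap. With equal hepatocyte marker sums the LucOS change of Ugt2b5 was 0.60 (adjusted p = 0.21). These genes were the highest of the family in Luc Aoah tumours, Ugt2b36 making up 27.1% and Ugt2b5 25.4% of the Ugt sum there, against 11.9% and 16.9% in Luc vector tumours.

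Ugt2b1 had the largest estimate of the Ugt genes on the log2(TPM + 1) scale in both models, a scale that understates lower genes such as Ugt3a1. It stood at 38.4, 42.3, 21.8 and 60.9 TPM in Luc Aoah, against 1.63, 2.83, 3.26 and 2.85 TPM in Luc vector tumours, and rose by 3.46 (SE 0.42, limma adjusted p = 0.00019). Its LucOS levels were 17.3, 10.1 and 45.9 TPM with Aoah, against 1.35, 4.24 and 1.12 TPM with vector, and rose by 2.84 (SE 0.49, adjusted p = 0.018). The lowest Aoah tumour of each model was above its highest vector tumour.

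Ugt2b35 stood at 92.8, 86.7, 80.9 and 103 TPM in Luc Aoah, against 20.8, 39.2, 23.1 and 30.3 TPM in Luc vector tumours, and at 56.8, 46.2 and 90.5 TPM in LucOS Aoah, against 20.2, 35.0 and 23.6 TPM in LucOS vector tumours. It rose in Luc (1.68, SE 0.25, limma adjusted p = 0.00066), and its LucOS change of 1.24 (SE 0.28) missed the threshold at 0.055, although the groups did not overlap in either model. Ugt2b34 stood at 177, 166, 121 and 207 TPM in Luc Aoah, against 69.2, 71.2, 65.97 and 96.7 TPM in Luc vector tumours, and at 140, 101 and 197 TPM in LucOS Aoah, against 33.0, 104 and 74.9 TPM in LucOS vector tumours. It rose in Luc (1.12, SE 0.31, adjusted p = 0.024) but not past the threshold in LucOS (1.13, adjusted p = 0.16), where vector 2 lay above Aoah 2. Its Luc call was lost with Luc Aoah 1 or 4, or Luc vector 1 or 3, left out. Ugt2b37 was a low-level gene at 0.40, 1.06, 1.12 and 2.14 TPM in Luc Aoah, against 0.17, 0.21, 0.07 and 0.12 TPM in Luc vector tumours, and at 0.27, 0.40 and 1.17 TPM in LucOS Aoah, against 0.32, 0.23 and 0.27 TPM in LucOS vector tumours. It rose in Luc (0.88, SE 0.23, adjusted p = 0.019), a call lost without Luc Aoah 4, Luc vector 3 or Luc vector 4. Ugt2b38 was not tested and reached at most 0.41 TPM.

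The sequence just before the start of the Ugt2b genes is printed because the 6 tested genes all had positive changes in both models and because the windows share a stretch. RefSeq promoter windows on build GRCm38.p6, 250 bases upstream of each start, were searched on both strands in 34 members and 27025 genes. Each line gives the 100 bases before the start, 5′ to 3′ in the direction of the gene, and capitals mark a match to GTTA and TTAAC with any 4 bases between.
Ugt2b1, chr5:86926504-86926603, minus strand: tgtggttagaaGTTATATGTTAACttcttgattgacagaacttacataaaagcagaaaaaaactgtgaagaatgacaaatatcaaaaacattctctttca
Ugt2b5, chr5:87140341-87140440, minus strand: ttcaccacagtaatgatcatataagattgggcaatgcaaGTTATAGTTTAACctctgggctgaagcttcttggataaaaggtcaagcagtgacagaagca
Ugt2b34, chr5:86906938-86907037, minus strand: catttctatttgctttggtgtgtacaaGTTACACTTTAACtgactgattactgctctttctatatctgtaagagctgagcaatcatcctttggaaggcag
Ugt2b35, chr5:87000760-87000859, plus strand: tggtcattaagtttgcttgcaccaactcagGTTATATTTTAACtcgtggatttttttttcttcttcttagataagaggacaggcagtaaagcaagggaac
Ugt2b36, chr5:87092556-87092655, minus strand: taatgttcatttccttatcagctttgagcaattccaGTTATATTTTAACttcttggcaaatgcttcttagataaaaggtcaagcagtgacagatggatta
Ugt2b37, chr5:87254789-87254888, minus strand: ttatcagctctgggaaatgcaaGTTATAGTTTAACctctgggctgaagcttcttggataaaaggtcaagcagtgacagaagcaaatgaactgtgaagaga
Ugt2b38, chr5:87424204-87424303, minus strand: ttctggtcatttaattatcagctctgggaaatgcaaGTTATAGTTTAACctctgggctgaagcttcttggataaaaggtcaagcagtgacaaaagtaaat

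All 7 Ugt2b windows held this form, with its first base between -89 (Ugt2b1) and -61 (Ugt2b5) from the start, and so did Ugt3a1 at -130. It was present in 0 of 8 Ugt1a windows and 0 of 16 Sult windows. Among all genes with a window 54 of 27025, or 0.2%, held it, and among those tested here 0.317%. The form was chosen after these sequences were seen, the Ugt2b genes are tandem copies that share sequence by descent, and a match in letters is no measured binding site. The windows with the form include Ugt2b38, which stood at or below 0.41 TPM in all tumours. Among the 34 members with a window, CACGTG, the E-box letters that MYC can bind, was found in 0 against 6.86% of all genes, and the Nrf2 element TGACNNNGC in 0 against 11.5%.

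In the RefSeq order of this chromosome 5 cluster, Ugt2b34 is followed by Ugt2b1, Ugt2b35, Ugt2b36, Ugt2b5, Ugt2b37, Ugt2a3, Ugt2b38 and Ugt2a2, and then by Sult1b1, Sult1d1 and Sult1e1. Members on both sides of the cluster rose in Luc, and Sult1e1 at its end fell. Reads of close copies can be assigned to the wrong member. In GENCODE M21 transcripts, 100% of the 50-base stretches of Ugt2b1, 99.7% of Ugt2b36 and Ugt2b35 and 98.6% of Ugt2b34 occurred in no other gene, against 58.3% of Ugt2b5, of whose stretches 34.8% were also in Ugt2b38.

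Ugt2a3, whose human counterpart glucuronidates bile acids, stood at 51.6, 44.4, 33.3 and 74.8 TPM in Luc Aoah, against 10.6, 15.0, 11.8 and 13.1 TPM in Luc vector tumours. LucOS tumours had 32.4, 21.8 and 50.8 TPM with Aoah, against 6.74, 17.8 and 6.25 TPM with vector. It rose by 1.88 ± 0.33 in Luc (limma adjusted p = 0.0022) and 1.74 ± 0.38 in LucOS (adjusted p = 0.047) with no overlap in either model.

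The Ugt3a genes, whose human counterparts use sugar donors other than UDP-glucuronic acid, showed the largest relative change of any Ugt subfamily in Luc. Their sum averaged 54.0 ± 12.8 TPM in Luc Aoah and 3.92 ± 0.88 TPM in Luc vector tumours (SD, n = 4 each), and 21.6 ± 15.1 TPM in LucOS Aoah and 4.07 ± 4.06 TPM in LucOS vector tumours (SD, n = 3 each). Ugt3a2 stood at 43.6, 46.6, 28.3 and 55.9 TPM in Luc Aoah, against 2.95, 3.49, 2.64 and 4.41 TPM in Luc vector tumours, and rose by 3.33 (SE 0.44, limma adjusted p = 0.00035). LucOS tumours had 15.5, 7.00 and 33.2 TPM with Aoah, against 1.45, 8.08 and 1.77 TPM with vector, and the change of 2.06 (SE 0.51) gave an adjusted p of 0.076 with vector 2 above Aoah 2. Ugt3a1 stood at 11.8, 10.8, 7.94 and 10.8 TPM in Luc Aoah, against 0.44, 0.78, 0.39 and 0.56 TPM in Luc vector tumours, and at 2.98, 1.35 and 4.93 TPM in LucOS Aoah, against 0.18, 0.67 and 0.05 TPM in LucOS vector tumours. It rose in both models without overlap, by 2.87 ± 0.26 in Luc (adjusted p = 2.5e-05) and 1.58 ± 0.30 in LucOS (adjusted p = 0.028).

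The Ugt1a locus changed less in amount than Ugt2b in Luc, where the ratio of means was 1.37 against 4.36. In LucOS these ratios were closer, at 2.33 and 2.90. The Ugt1a sum was 308, 434, 181 and 350 TPM in Luc Aoah, against 188, 217, 270 and 252 TPM in Luc vector tumours, and Luc Aoah 3 lay below all Luc vector tumours. In LucOS the sum was 279, 185 and 376 TPM with Aoah, against 64.5, 233 and 61.7 TPM with vector, again overlapping. Of 6 tested Ugt1a genes, 2 rose in Luc and 1 in LucOS, and the median log2 change was 0.59 in Luc and 1.34 in LucOS. Ugt1a genes supplied 20.9% of the Ugt sum in Luc Aoah and 46.4% in Luc vector tumours, and Ugt2b genes 72.3% and 50.3%. In LucOS the shares were 25.9% with Aoah and 27.9% with vector for Ugt1a, and 69.1% and 68.6% for Ugt2b.

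Ugt1a1, the bilirubin glucuronosyltransferase, was the highest Ugt1a gene. It stood at 209, 279, 121 and 218 TPM in Luc Aoah, against 146, 169, 199 and 191 TPM in Luc vector tumours, and at 189, 127 and 234 TPM in LucOS Aoah, against 50.9, 164 and 40.6 TPM in LucOS vector tumours. The groups overlapped in both models, and the change was 0.18 ± 0.37 in Luc (limma adjusted p = 0.72) and 1.33 ± 0.42 in LucOS (adjusted p = 0.17). Ugt1a1 made up 13.6% of the Ugt sum in Luc Aoah and 35.3% in Luc vector tumours. Ugt1a9, whose human counterpart conjugates phenols such as propofol, was the Ugt1a gene that rose in both models. It stood at 37.7, 42.6, 20.8 and 53.3 TPM in Luc Aoah, against 5.14, 11.0, 15.0 and 9.54 TPM in Luc vector tumours, and rose by 1.83 (SE 0.45, adjusted p = 0.015), a call lost without Luc Aoah 4. LucOS tumours had 20.9, 19.7 and 40.9 TPM with Aoah, against 1.58, 10.9 and 2.44 TPM with vector, and rose by 2.50 (SE 0.52, adjusted p = 0.035).

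Ugt1a5 stood at 11.8, 17.6, 4.36 and 14.4 TPM in Luc Aoah, against 1.95, 3.39, 4.74 and 3.93 TPM in Luc vector tumours, and at 15.9, 5.22 and 19.9 TPM in LucOS Aoah, against 0.99, 5.96 and 1.59 TPM in LucOS vector tumours. The groups overlapped, and its rise in Luc (1.44, SE 0.47, limma adjusted p = 0.045) was lost when any 1 of Luc Aoah 1, 2 or 4 or Luc vector 1, 3 or 4 was left out. The LucOS change was 1.98 (adjusted p = 0.11). Ugt1a6a and Ugt1a6b, which conjugate planar phenols, averaged 37.7 ± 17.8 and 19.4 ± 6.50 TPM in Luc Aoah, against 24.7 ± 4.83 and 15.6 ± 3.87 TPM in Luc vector tumours (SD, n = 4 each), and passed in neither model. Ugt1a7c reached 5.86 TPM at most and passed in neither model. These splits within the locus are uncertain, because only 4.0% of the 50-base stretches of Ugt1a6a and 45.8% of those of Ugt1a7c were unique to the gene and the other Ugt1a members lay between. Ugt1a2, Ugt1a8, Ugt1a10 and Ugt2a2 were below the level filter and reached 0.36, 2.13, 0.71 and 0.12 TPM.

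**Figure D3:**
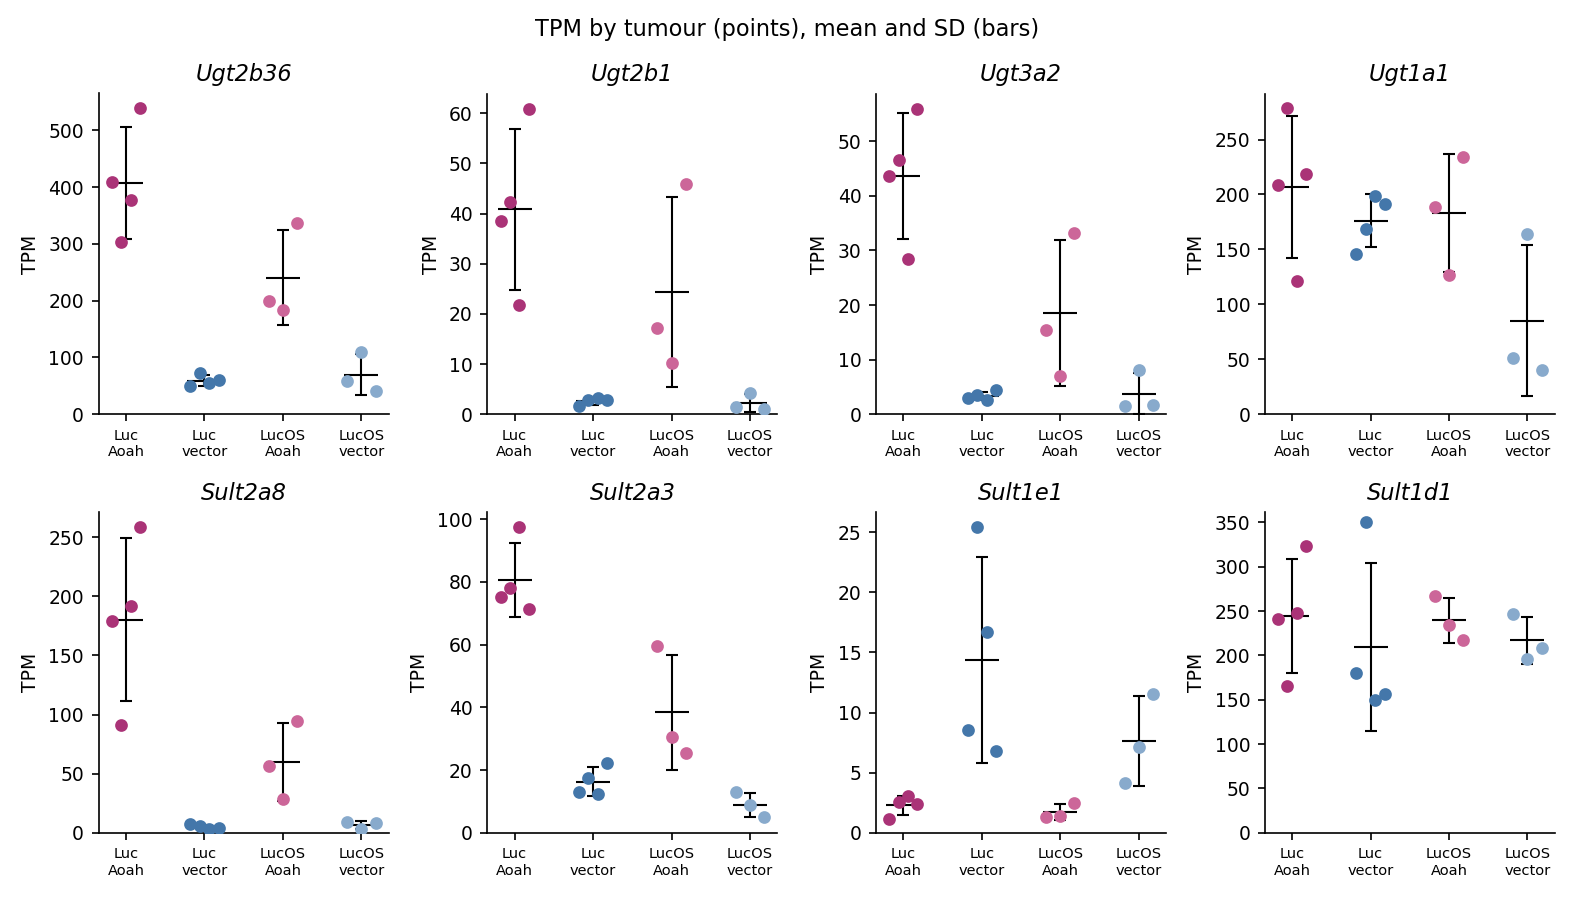
TPM of 8 members in each tumour, with the group mean and SD (n = 4 in each Luc and 3 in each LucOS group), on a linear axis from 0. Aoah and vector tumours are apart for Ugt2b36, Ugt2b1, Sult2a8 and Sult2a3, Sult1e1 is lower with Aoah, and Ugt1a1 and Sult1d1 overlap; for Ugt3a2 the LucOS groups overlap.

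Among sulfotransferases, the Sult2a genes, which act on hydroxysteroids and bile acids, carried most of the change. Their sum was 363, 317, 420 and 644 TPM in Luc Aoah, against 120, 148, 118 and 106 TPM in Luc vector tumours, a ratio of means of 3.54. In LucOS it was 263, 151 and 178 TPM with Aoah, against 82.5, 75.1 and 77.3 TPM with vector, a ratio of 2.52. Of 7 tested Sult2a genes, the same 3 rose in each model, namely Sult2a8, Sult2a7 and Sult2a3.

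Sult2a8, a mouse bile acid sulfotransferase, had the largest estimate of all members on the log2(TPM + 1) scale, which understates lower genes such as Sult2a7 and Sult3a1. It stood at 179, 90.8, 192 and 259 TPM in Luc Aoah, against 7.05, 5.75, 3.00 and 3.68 TPM in Luc vector tumours, and its rise was 4.91 (SE 0.41, limma adjusted p = 1.2e-05). Its LucOS levels were 56.6, 28.8 and 94.7 TPM with Aoah, against 8.83, 3.04 and 8.56 TPM with vector, and its rise was 2.92 (SE 0.47, adjusted p = 0.015). It made up 21.3% of the Sult sum in Luc Aoah and 1.07% in Luc vector tumours, and 10.2% in LucOS Aoah and 1.83% in LucOS vector tumours. Sult2a7, the neighbour of Sult2a8, stood at 10.3, 11.1, 19.9 and 11.9 TPM in Luc Aoah, against 0.46, 0.13, 0.40 and 0.00 TPM in Luc vector tumours. It stood at 3.43, 2.56 and 5.39 TPM in LucOS Aoah, against 0.05, 0.00 and 0.18 TPM in LucOS vector tumours. Its change was 3.49 ± 0.24 in Luc (adjusted p = 5.4e-06) and 2.12 ± 0.28 in LucOS (adjusted p = 0.006), the smallest adjusted p of all members in each model. Sult2a7 was the member called in LucOS under every alternative, with adjusted p up to 0.039.

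Sult2a3 stood at 75.2, 78.2, 97.7 and 71.4 TPM in Luc Aoah, against 13.0, 17.5, 12.4 and 22.3 TPM in Luc vector tumours, and at 59.5, 30.5 and 25.3 TPM in LucOS Aoah, against 12.9, 8.77 and 5.07 TPM in LucOS vector tumours. It rose without overlap by 2.27 ± 0.29 in Luc (limma adjusted p = 0.00033) and 1.98 ± 0.34 in LucOS (adjusted p = 0.018). Sult2a5 stood at 9.42, 14.1, 7.74 and 38.3 TPM in Luc Aoah, against 7.04, 11.0, 9.76 and 5.76 TPM in Luc vector tumours, and at 14.6, 12.8 and 5.77 TPM in LucOS Aoah, against 5.09, 3.74 and 2.83 TPM in LucOS vector tumours. Sult2a6 stood at 4.85, 3.62, 4.82 and 11.9 TPM in Luc Aoah, against 4.06, 4.08, 4.04 and 2.06 TPM in Luc vector tumours, and at 7.67, 5.33 and 2.83 TPM in LucOS Aoah, against 1.61, 1.45 and 0.91 TPM in LucOS vector tumours. Both overlapped in Luc and not in LucOS, and neither passed in a single model. Over both models together, Sult2a5 rose by 0.99 (SE 0.31, adjusted p = 0.048) and Sult2a6 by 0.98 (SE 0.25, adjusted p = 0.018).

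Sult2a1 and Sult2a2 ranged from 53.2 to 135 TPM and 28.5 to 115 TPM in Luc Aoah tumours, whereas Luc vector tumours had 50.3 to 60.4 TPM and 21.7 to 48.9 TPM. Neither passed in any comparison, with limma adjusted p-values of 0.17 and 0.45 in Luc and 0.91 and 0.59 in LucOS. Only 37.9% of the 50-base stretches of Sult2a2 and 66.8% of those of Sult2a1 occurred in no other gene, so the split between these close copies is uncertain, whereas the shares were 100% for Sult2a7, 97.9% for Sult2a8 and 91.6% for Sult2a3. Sult2a4 stood at 1.72 TPM or less and was not tested.

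The Sult2a promoter windows are shown because a shared stretch was found in a gene that rose and in 2 genes that passed only over both models. The lines give the 100 bases before the RefSeq start on GRCm38.p6, and capitals mark GTTAAT, searched on both strands.
Sult2a3, chr7:14123049-14123148, minus strand: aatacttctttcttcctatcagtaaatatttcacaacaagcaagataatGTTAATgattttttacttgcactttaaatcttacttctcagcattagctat
Sult2a5, chr7:13623867-13623966, plus strand: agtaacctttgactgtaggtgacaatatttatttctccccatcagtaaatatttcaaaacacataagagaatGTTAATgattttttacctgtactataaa
Sult2a6, chr7:14254871-14254970, minus strand: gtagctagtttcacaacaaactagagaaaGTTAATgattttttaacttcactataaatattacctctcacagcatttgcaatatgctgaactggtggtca

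GTTAAT was in 4 of 5 Sult2a windows and in 13 of 34 members' windows, against 7.49% of all genes with a window and 5.43% of those tested. The exception was Sult2a8, and Sult2a4 held it beyond the last 100 bases. No window was available for Sult2a1, Sult2a2 and Sult2a7. GTTAAT was also in 4 of 8 Ugt1a windows, Ugt1a1 among them, and in 0 of 7 Ugt2b windows. It was among several patterns searched, close copies can share letters by descent, and a match in letters is no measured binding site.

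Outside Sult2a, Sult1e1, the oestrogen sulfotransferase, was the only tested member that fell in Luc. It stood at 1.14, 2.54, 3.04 and 2.39 TPM in Luc Aoah, against 8.57, 25.5, 16.7 and 6.77 TPM in Luc vector tumours, and changed by -2.10 (SE 0.38, limma adjusted p = 0.0026). Its LucOS levels were 1.33, 1.42 and 2.48 TPM with Aoah, against 4.12, 7.17 and 11.6 TPM with vector, a change of -1.58 (SE 0.44, adjusted p = 0.11). All Aoah tumours of each model were below its vector tumours, and over both models it fell by 1.84 (SE 0.29, adjusted p = 0.00082). The authors' deposited table, which rests on their own count test, lists it at -2.14 with an adjusted p of 0.000261 in LucOS. Sult1e1 was 0.288% of the Sult sum in Luc Aoah and 2.88% in Luc vector tumours.

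Sult1d1, a catecholamine sulfotransferase, was the highest Sult gene by mean level, and its groups overlapped in both models. It stood at 241, 166, 248 and 323 TPM in Luc Aoah, against 180.0, 350.0, 150 and 157 TPM in Luc vector tumours, and at 267, 235 and 217 TPM in LucOS Aoah, against 247, 196 and 208 TPM in LucOS vector tumours. The change was 0.28 ± 0.26 in Luc (limma adjusted p = 0.42) and 0.15 ± 0.30 in LucOS (adjusted p = 0.92). Sult1a1, a phenol sulfotransferase, stood at 110, 122, 58.2 and 174 TPM in Luc Aoah, against 72.0, 131, 132 and 97.6 TPM in Luc vector tumours, and at 85.7, 64.6 and 178 TPM in LucOS Aoah, against 24.5, 163 and 43.4 TPM in LucOS vector tumours. Its change was 0.04 ± 0.49 in Luc (adjusted p = 0.96) and 0.82 (adjusted p = 0.64) in LucOS, with wide overlap.

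Sult1b1, which sulfates thyroid hormones and phenols, stood at 21.3, 10.8, 18.6 and 24.6 TPM in Luc Aoah, against 5.14, 9.71, 4.66 and 4.99 TPM in Luc vector tumours, and rose by 1.47 (SE 0.27, limma adjusted p = 0.0026). LucOS tumours had 8.65, 10.3 and 12.5 TPM with Aoah, against 6.49, 5.40 and 5.72 TPM with vector, a change of 0.73 (adjusted p = 0.34) without overlap. Sult3a1, an amine sulfotransferase, was listed at 0 in 3 Luc vector tumours and at 0.05 TPM in the other, and stood at 2.68, 6.69, 4.26 and 15.2 TPM in Luc Aoah tumours. It rose in Luc (2.79, SE 0.40, adjusted p = 0.00056), a size that depends on the added 1 TPM. Its LucOS levels were 2.24, 1.18 and 4.12 TPM with Aoah, against 0.00, 1.20 and 0.00 TPM with vector (1.35, adjusted p = 0.21). Sult5a1 stood at 1.46, 2.76, 1.16 and 3.05 TPM in Luc Aoah, against 1.23, 0.32, 0.48 and 0.06 TPM in Luc vector tumours, and at 0.79, 1.27 and 4.55 TPM in LucOS Aoah, against 0.99, 1.44 and 0.58 TPM in LucOS vector tumours. Its Luc rise (1.03, SE 0.34, adjusted p = 0.044) was lost with any 1 Luc tumour other than vector 1 left out. Sult1c2 averaged 7.43 ± 1.24 TPM in Luc Aoah and 11.3 ± 2.82 TPM in Luc vector tumours (SD, n = 4 each) and passed in neither model. Sult2b1, Sult3a2, Sult4a1, Sult6b1 and Sult6b2 were below the filter and reached 0.80, 0.64, 0.76, 0.21 and 0.03 TPM.

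All Aoah tumours exceeded all vector tumours for 15 of 29 members in Luc, beside 11.8% of all tested genes, and for 13 in LucOS, beside 6.22%. These counts lean upward too. Sult2a7 and Ugt3a1 (both models) and Sult3a1 and Ugt2b37 (Luc) are among them and passed the level filter mainly through Aoah tumours. Every Aoah tumour lay below for 1 member in each model, Sult1e1, beside 9.1% of genes in Luc and 6.07% in LucOS. Read per 1000 TPM of hepatocyte markers, 10 members in Luc (2.23% of genes) and 10 in LucOS (1.17%) were above in every Aoah tumour. They included Ugt2b1, Ugt2b5, Ugt2b36, Ugt2a3, Ugt3a1, Ugt1a9, Sult2a7, Sult2a8 and Sult3a1 in both models. Of these, Sult2a7, Sult3a1 and Ugt3a1 passed the level filter mainly through Aoah tumours. Per 1000 TPM of hepatocyte markers, Sult1a1, Sult1c2, Sult1e1 and Ugt1a1 lay below in every Luc Aoah tumour (53.0% of genes) and Sult1e1 did in LucOS (54.8%).

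The Ugt2b sum per 1000 TPM of hepatocyte markers averaged 61.7 ± 16.7 in Luc Aoah and 26.9 ± 6.2 in Luc vector tumours (SD, n = 4 each), and 43.9 ± 1.63 in LucOS Aoah and 30.9 ± 1.77 in LucOS vector tumours (SD, n = 3 each). Neither pair overlapped. The Ugt1a sum on the same scale averaged 17.5 ± 5.24 in Luc Aoah and 24.4 ± 3.39 in Luc vector tumours, the reverse of its order in TPM, and 16.5 ± 1.82 in LucOS Aoah and 13.0 ± 5.12 in LucOS vector tumours. For Sult2a the values were 24.7 ± 10.2 in Luc Aoah and 13.2 ± 2.97 in Luc vector tumours, without overlap, and 12.5 ± 5.15 in LucOS Aoah and 10.6 ± 4.34 in LucOS vector tumours, with overlap. LucOS Aoah 3, which had the highest Ugt sum of its model and the highest mitochondrial share, also had the highest hepatocyte marker sum among LucOS tumours, and on this scale its Ugt2b value of 43.4 lay between those of the other LucOS Aoah tumours, 42.7 and 45.8.

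**Figure D4:**
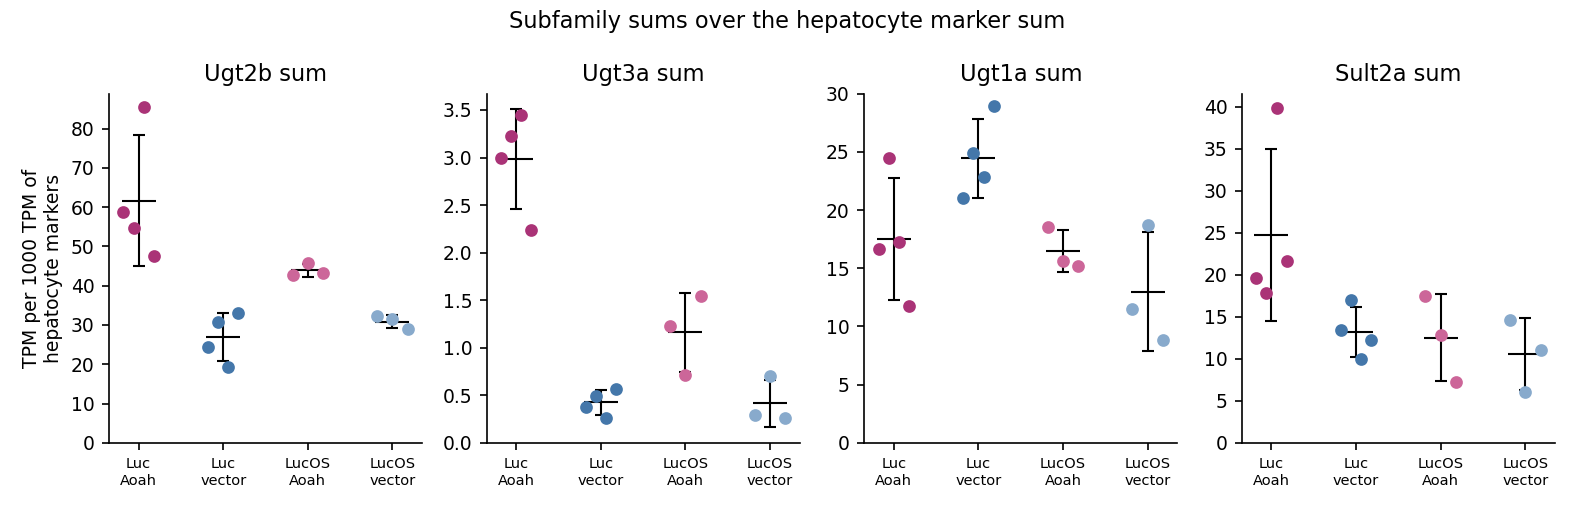
Summed TPM of the Ugt2b, Ugt3a, Ugt1a and Sult2a members per 1000 TPM of 14 hepatocyte markers in each tumour, with the group mean and SD (n = 4 in each Luc and 3 in each LucOS group). Ugt2b and Ugt3a are higher in every Aoah tumour than in the vector tumours of the same model. For Ugt3a in LucOS the margin is slight, 0.71 in Aoah 2 against 0.70 in vector 2. Ugt1a averages 17.5 in Luc Aoah and 24.4 in Luc vector tumours.

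The size of the Aoah effect was compared between the models through the difference LucOS minus Luc. No member passed (limma, 0.00743% of all genes called). An unadjusted p below 0.05 was found for 5 of 29 members, beside 1378 of all 13466 genes. The largest difference was that of Sult2a8 at -1.99 (SE 0.62, adjusted p = 0.44), and those of Sult3a1, Sult2a7 and Ugt3a1 were -1.44 (SE 0.61), -1.38 (SE 0.37) and -1.29 (SE 0.40). Sult1c2 differed by 1.10 (SE 0.44). Between LucOS vector and Luc vector tumours no member passed (0.0% of genes called), with Ugt1a1 at -1.31 (SE 0.40, adjusted p = 0.34). There 6 of 29 members had an unadjusted p below 0.05, beside 1918 of all 13466 genes. Between LucOS Aoah and Luc Aoah tumours Sult2a7 was lower (-1.57, SE 0.26, adjusted p = 0.037), beside 0.0817% of all genes called. That call was lost without Luc Aoah 2, 3 or 4 or LucOS Aoah 1 or 2, and under 8 other settings. Over both models 18 members rose and 1 fell (8.02% and 6.68% of all genes), a comparison of the same tumours and so no separate evidence.

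Genes that serve the same reactions were counted by list. These counts stand beside 7.93% of all genes higher and 14.3% lower in Luc, and 0.75% higher and 0.215% lower in LucOS. Of 8 genes that supply UDP-glucuronic acid, 3 rose and 1 fell in Luc, and none passed in LucOS. Ugp2, which makes UDP-glucose, rose by 1.09 (SE 0.22, limma adjusted p = 0.0054), and Slc35d2, a nucleotide sugar transporter, by 0.79 (SE 0.22, adjusted p = 0.026). The third, Ugdh, which oxidises UDP-glucose to the donor, rose by 1.40 (SE 0.48, adjusted p = 0.0498), and Pgm1, a phosphoglucomutase, fell by 1.34 (SE 0.46, adjusted p = 0.047). None of 7 tested genes for supply and removal of PAPS, the sulfonate donor, passed in either model, with adjusted p-values in Luc from 0.11 (Bpnt1) to 0.90 (Slc26a1). Of 8 deconjugating enzymes only Gusb, the beta-glucuronidase, passed, with a change of -0.996 ± 0.242 in Luc (adjusted p = 0.014). That 1 of 8 was not above the 14.3% of all genes that were lower.

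Of 12 transporters of conjugates 3 rose and 1 fell in Luc and none passed in LucOS. The uptake carriers Slco1b2 and Slco1a1 rose by 1.40 (SE 0.20, limma adjusted p = 0.00054) and 1.72 (SE 0.31, adjusted p = 0.0023), and the efflux pump Abcb1a changed by -1.59 (SE 0.32, adjusted p = 0.0052). Of 15 other conjugating enzymes 8 rose and 2 fell in Luc and 2 rose in LucOS. Inmt, an N-methyltransferase of indoles, rose by 5.44 ± 0.45 in Luc (adjusted p = 1.2e-05) and 4.84 ± 0.52 in LucOS (adjusted p = 0.0011). Glyat, the glycine conjugase, rose by 1.74 (SE 0.23) in Luc and 1.28 (SE 0.27) in LucOS, and Baat, which joins bile acids to amino acids, by 2.21 (SE 0.34) in Luc.

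Of 25 tested regulators named for these families 1 rose and 3 fell in Luc and none passed in LucOS. Neither Luc count was above the share of all genes, 7.93% higher and 14.3% lower. Rxra, the shared partner of nuclear receptors, changed by -1.88 (SE 0.46, limma adjusted p = 0.015), Nr1h3, the oxysterol receptor LXR alpha, by 0.61 (SE 0.17, adjusted p = 0.026) and Foxa1, a liver pioneer factor, by -1.03 (SE 0.30, adjusted p = 0.031). Of 15 tested genes that the xenobiotic receptors CAR, PXR and AhR and the factor Nrf2 are known to induce, 5 rose in Luc and 2 in LucOS. Gsta1, a glutathione transferase, rose by 3.97 ± 0.56 in Luc (adjusted p = 0.00054) and 4.47 ± 0.65 in LucOS (adjusted p = 0.0085), and Nqo1, a quinone reductase, by 1.86 (SE 0.31, adjusted p = 0.0017) and 1.84 (SE 0.36, adjusted p = 0.032). Cyp3a11, a drug-oxidising cytochrome, rose by 2.47 ± 0.41 in Luc (adjusted p = 0.0015).

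The authors' deposited tables, made with their own tool on the same tumours, gave an adjusted p below 0.05 to 24 members with a positive and 1 with a negative fold change of 37 with a value in Luc, beside 31.7% of the identifiers with an adjusted p. In LucOS those tables gave 13 positive and 1 negative of 33, beside 2.77% of such identifiers. The negative member in each table was Sult1e1. Which group the authors put on top was read from the sign of Aoah, at 5.01 and 8.36 in the 2 deposited tables. They list Ugt2b35 at 1.27 (adjusted p = 0.00215), Ugt3a2 at 2.33 (adjusted p = 0.00906), Sult2a6 at 1.94 (adjusted p = 0.0156) and Ugt1a5 at 2.30 (adjusted p = 0.00521) in LucOS, members that missed the threshold in that model on the TPM values. In Luc such members were Ugt1a1 at 0.46 (adjusted p = 0.0455), Ugt1a6a at 0.83 (0.00489), Ugt1a6b at 0.56 (0.0147) and Ugt1a7c at 1.31 (0.00318). Sult2a1 at 0.92 (0.0224) and Sult2a5 at 1.30 (0.0305) were others. Sult3a2, not tested on TPM, was listed at 4.60 (0.00399) in Luc.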

How the data were processed

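Bulk RNA of 14 mouse liver tumours was analysed from the authors' expression table and their 2 tables of comparisons. Per the submitters' processing notes, RSEM, DESeq2 and build mm39 were used; their versions, the aligner and the strand setting were not stated in the labels. Values in the deposited expression table are log2 of TPM plus 1, checked by the TPM sums per tumour (997292 to 999229). The deposited tables of comparisons hold log2 fold changes and adjusted p-values for Ensembl identifiers, of which 95.5% (Luc) and 95.6% (LucOS) were named from a table of gene identifiers; close copies were compared in GENCODE M21 transcripts. No counts were used, so no count test was run.

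Groups came from the labels. Genes at 1 TPM or more in at least 3 tumours were fitted with limma 3.58.1 (R 4.3.3) on log2(TPM + 1), 1 mean per group over all 14 tumours, with a variance trend and robust moderation, and p-values were adjusted over 13466 genes by the Benjamini-Hochberg method at 0.05. The fit was tested on simulated data. Compared were Aoah with vector tumours of each model and over both, the difference between models, and LucOS against Luc within vector and within Aoah tumours. Members named with every tumour's value are those past 0.05 in any contrast and the 3 highest of each family; up to 3 genes with the smallest p in Luc were named per other list; some genes are not reported here. The members, lists and tests were chosen with earlier results of these data known. Alternatives were pseudocounts of 0.1 and 0.5, filters (none, 5 TPM), median centring, a rescaling without 338 mitochondrial and small RNA genes, array weights, a replicate block, fits of the compared groups alone and left-out tumours. Promoters were RefSeq windows on GRCm38.p6, so coordinates are not of the authors' build. Sequences of protein products and the receptor table were not used here. Python 3.11.15, pandas 2.3.3, numpy 2.4.6 and matplotlib 3.10.9 were used.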

Additional observations from a re-analysis of the deposited data

Results flagged for a closer look

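Among 68 sets of 4 Luc tumours examined for a tumour far from the other 3, 9 held one. The limit, a gap of 0.829 of the range, is passed by about 1 in 20 sets of independent normal values. These sets share tumours, some are sums of other members, and TPM need not be normal, so the count measures no excess. Luc vector 2 was apart for Sult1d1 (350.02 TPM, others 150.17 to 180.01), Sult1b1 (9.71 TPM, others 4.66 to 5.14) and Sult3a1 (0.05 TPM, others listed at 0). With the others at 0, any Sult3a1 value above 0 would have passed the limit. Luc vector 4 was apart for Ugt2b34 (96.72 TPM, others 65.97 to 71.16) and Sult2a6 (2.06 TPM, others 4.04 to 4.08). Luc Aoah 4, which had the highest hepatocyte marker sum of all tumours, was apart for Sult2a2 (115.4 TPM, others 28.51 to 38.46) and Sult2a6 (11.85 TPM, others 3.62 to 4.85). Luc Aoah 3 was apart for Sult2a7 (19.87 TPM, others 10.33 to 11.91) and Luc Aoah 2 for Ugt1a7c (5.86 TPM, others 2.19 to 2.23). What set these tumours apart was not tested.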

How the results depend on the processing

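Of 1554 alternative values of 78 named results, 1375 stayed on the same side of the threshold, 142 lost the call, 36 gained it and 1 gained it with the opposite sign. Signs changed in 24 values, 0 of them of results called as reported and 18 of them with equal hepatocyte marker sums, Sult1d1, Sult2a1 and Sult2a2 in both models included. In Luc (18 members called) 10 were called under every alternative and 13 with each tumour left out. The count ran from 13 to 17 with single tumours left out and was 11 without vector 1 and 3 together. Over all genes it ran from 855 to 5251 and was 355 in these settings. In LucOS (9 called) the count ran from 1 to 15 with single tumours left out, beside 13 to 353 of all genes. It was 1 with no filter (15 of 29923 genes) and 1 with only the groups of the comparison (6 of 12262 genes). It was 24 with array weights (4278 of 13466 genes), whose estimation did not converge. Array weights also called 5238 of all 13466 genes for the difference between models, and 11 members (0 as reported). For LucOS vector against Luc vector they called 7722 genes and 16 members (0 as reported). For LucOS Aoah against Luc Aoah they called 327 genes and 8 members (1 as reported). That last count was 0 with pseudocounts of 0.1 and 0.5, no filter, a filter of 5 TPM, the rescaling, only its own groups and equal hepatocyte marker sums, and 0 to 2 with single tumours left out. With equal hepatocyte marker sums, chosen after seeing the data, the Ugt ratio in Luc was 1.598 (3.04 as reported), the Sult ratios reversed to 0.928 in Luc and 0.701 in LucOS, and Sult1a1 in Luc turned to -0.871. Without Sult1d1 the Sult ratio in LucOS was 1.889. Median centring put 2145 of 4120 called genes higher in Luc, against 1068 of 2988 as reported. The causes were not tested. TPM without depth gives no limit of detection.

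Same-numbered tumours showed no common deviation as a rule (correlations from -0.554 to 0.446, 5 of 19 pairs over 0.1). Within a model 0 of 7 pairs were over 0.1. Such correlations cannot exclude a shared mouse or batch, so the numbers were not used as pairs in the main fit. With the replicate block 16 members were called in Luc, 3 in LucOS, 17 over both models and 0 in each other contrast, LucOS Aoah against Luc Aoah included. Calls over all genes fell as well, to 1168 in Luc, 34 in LucOS and 1237 over both models. As reported they were 2988, 130 and 1980.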
